A study of Mus musculus with 4 samples.

Results

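The genes described here are 35 mouse genes of the lysosome, taken as a fixed list of symbols for its hydrolases, membrane proteins and proton pump. Of these, 34 had at least 1 probe set on the array, 57 probe sets in all, among 12393 genes that could be named. The remaining gene, Cd63, matched no probe set in the platform annotation used and has no value here. For a gene with several probe sets the brightest, by its mean of the 4 arrays, was used, and the genes were put in 5 groups: 8 cathepsins, 7 glycosidases, 9 other soluble enzymes and cofactors, 6 measured membrane proteins and 4 proton pump subunits. The samples were mouse embryonic fibroblasts of a strain labelled C57/BJ6, with no treatment named. They carried either the label Npm1+/+ (wild type) or Npm1+/- (heterozygote, 1 of the 2 copies of Npm1 lost), and for each genotype label there was 1 array of total RNA and 1 of ribosome-bound RNA from a sucrose gradient, called polysome RNA below. That makes 4 arrays, 1 per group, so no value has a replicate error, and no difference below was tested. The sources used here do not say whether the cells came from 1 embryo or a pool, nor which gradient fractions made up the polysome sample.

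The lysosome is the acidic compartment in which cells break down proteins, glycans and lipids that arrive by endocytosis and autophagy. Its soluble enzymes are made on the endoplasmic reticulum, tagged with mannose 6-phosphate in the Golgi and carried to the lysosome by receptors for that tag. A multi-subunit proton pump, the V-ATPase, acidifies the lumen, and heavily glycosylated proteins line the membrane. Many of these genes carry short E-box sequences near their start that the transcription factor TFEB and its relatives bind. Embryonic fibroblasts use lysosomal proteases in turnover of endocytosed matrix, and inherited loss of single hydrolases causes storage disorders.

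The deposited values were log2 values from RMA, a method that corrects background, brings arrays to a common scale and combines probes into 1 value per probe set. Array medians lay between 7.47 and 7.59. The median of all values, 7.53, served as a mark of brightness, and a gene is called bright here where its mean over the arrays reached it. This held for 6768 of the named genes. All 12 fibroblast markers (such as Col1a1, Vim and Thy1) were at or above that level on every array, and the 4 epithelial markers were below it on every array. The 3-prime and 5-prime control probe sets of Gapdh differed by -0.09 to 0.12 and those of beta-actin by 0.01 to 0.06 over the arrays, a check on RNA integrity. Those of the transferrin receptor, whose probe sets were dim, differed by 1.47 to 1.72. Npm1 itself did not follow its labels: the brighter probe set read 11.91 and 11.96 in total RNA under the wild-type and heterozygote labels, and 12.93 and 12.84 in polysome RNA. Where its probes lie relative to the inactivated part is not known here, so genotypes are given throughout as labels of arrays. Technical spread was taken from 2488 genes with at least 2 bright probe sets. The SD of the disagreement between probe sets of a gene was 0.31 for the genotype difference in total RNA, 0.28 in polysome RNA, and 0.26 and 0.23 for the fraction difference under the wild-type and heterozygote labels.

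All 34 measured genes were bright by their mean, and 32 of them were at or above 7.53 on every array. The exceptions were Npc1, the membrane transporter that exports cholesterol from the lysosome, and Gpnmb, a glycoprotein found in lysosomes of phagocytic and pigment cells. Npc1 read 7.76 and 6.99 in total RNA (wild-type, then heterozygote label) and 8.01 and 7.47 in polysome RNA. Gpnmb read 7.33 and 7.42 in total RNA and 8.27 and 8.09 in polysome RNA. Levels of different probe sets do not compare, since each binds its target with its own strength, so only differences within a gene are read below. In such bulk samples, fewer cells of a type and less RNA per cell cannot be told apart.

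**Figure D1:**
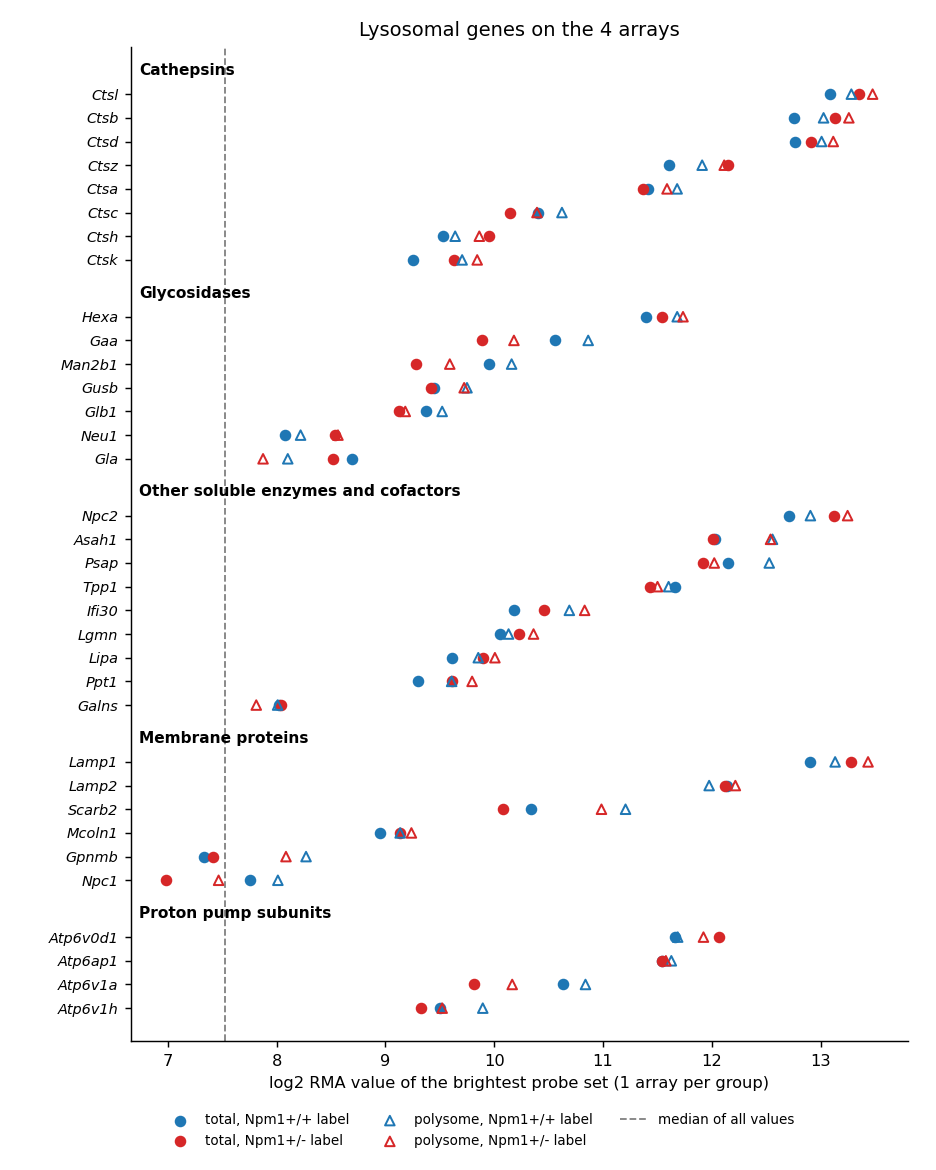
Log2 RMA values (horizontal axis) of the brightest probe set of each of the 34 measured lysosomal genes on the 4 arrays, by gene group. Filled circles are total RNA, open triangles polysome RNA, blue the Npm1+/+ label and red the Npm1+/- label; the dashed line is the median of all values, 7.53. The 4 values of a gene lie close together compared with the width of the axis, and Gaa, Man2b1 and Atp6v1a show both red symbols to the left of both blue ones.

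The E-box sequences named above were counted in the promoters of these genes. The windows ran from 250 bases before to 50 bases after an annotated RefSeq transcript start (GRCm38.p6). The motifs were picked because they are known from lysosomal genes, so an excess in this list is not an independent finding. The table held 28 of the 34 genes, and a gene with several windows counted as holding a motif where any of them did. Exact matches were sought to CACGTG, the E-box core, and to TCACGTGA, the longer form that TFEB and its relatives bind. Each is its own reverse complement, so a match stands on both strands, and each longer match contains the core. The longer form was found in 7 of the 28 genes (25%), against 1.12% of 27025 genes in the promoter table and 2.55% of the 5537 bright genes in it. The core was found in 12 of the 28 (42.9%), against 8.09% and 12.7%. A 10-letter form with a further G before and C after was found in none of the 28, and in 0.37% of all genes. These are matches of letters only, not sites shown to be bound. The windows with the longer form are printed because several of their genes are described in the comparisons below, Atp6v1a, Atp6v0d1, Gla and Ifi30 among them. Each is shown 5′ to 3′ along the gene's strand, with the motif in capitals:
Ctsa (chr2:164833757-164833798, + strand): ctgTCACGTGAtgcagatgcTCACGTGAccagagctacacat
Ctsd (chr7:142387905-142387946, - strand): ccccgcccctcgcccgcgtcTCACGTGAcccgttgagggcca
Gla, first motif (chrX:134601212-134601253, - strand): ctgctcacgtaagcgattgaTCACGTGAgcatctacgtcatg
Gla, second motif (chrX:134601179-134601220, - strand): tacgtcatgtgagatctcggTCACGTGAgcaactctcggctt
Ifi30 (chr8:70766839-70766880, - strand): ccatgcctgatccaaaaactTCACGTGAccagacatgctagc
Mcoln1 (chr8:3500453-3500494, + strand): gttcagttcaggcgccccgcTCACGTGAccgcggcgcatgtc
Atp6v0d1 (chr8:105566047-105566088, - strand): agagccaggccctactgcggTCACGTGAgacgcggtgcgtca
Atp6v1a (chr16:44139370-44139411, - strand): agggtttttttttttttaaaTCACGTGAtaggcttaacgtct

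In the carboxypeptidase gene Ctsa the motif occurred on either side of the start, with first bases at -13 and 5, and in the proton pump gene Atp6v0d1 it spanned the start, from -4. Mcoln1, which encodes a calcium channel of the lysosomal membrane, and Ctsd, the aspartyl protease cathepsin D, had it at -46 and -99. In Atp6v1a it began at -132, in Ifi30 at -197 and in Gla at -228 and -195. Lamp1 held no longer form but 4 copies of the core, beginning at -61, -45, -28 and -15. The genes with the longer form did not share a direction. Their differences between genotype labels in total RNA ran from -0.82 (Atp6v1a) to 0.40 (Atp6v0d1), with a median of 0.15, against 0.04 over the 16 genes with neither form. In polysome minus total RNA under the wild-type label their median was 0.21, against 0.27.

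**Figure D2:**
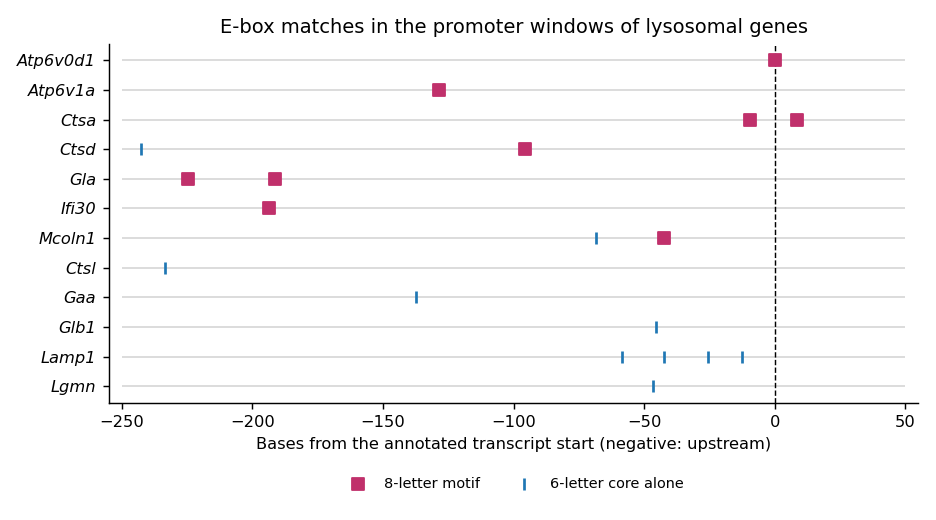
Places of E-box matches (horizontal axis, bases from the annotated transcript start, negative upstream) in the promoter windows of the 12 lysosomal genes that had any. Squares are the 8-letter form and vertical ticks the 6-letter core alone; 7 genes have a square, and Lamp1 has 4 ticks close to its start.

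The first comparison, between genotype labels, asks whether loss of a copy of Npm1 goes with a change in these RNAs. None of the 34 genes differed by 2-fold or more in either RNA, against 1.04% of all named genes in total RNA and 0.767% in polysome RNA. At 1.5-fold (0.58 on the log2 scale), 4 genes were lower under the heterozygote label in total RNA: Atp6v1a, Npc1, Man2b1 and Gaa. In polysome RNA, 2 were lower, Gaa and Atp6v1a, and none was 1.5-fold higher in either. Among all named genes 3.96% were 1.5-fold lower and 4.63% higher in total RNA, and 3.74% and 1.32% in polysome RNA. Among bright genes alone 6.21% and 5.85% were 1.5-fold lower, and 4 and 2 of 34 are 11.8% and 5.88%. With quantile normalisation 4 and 3 of the 34 were 1.5-fold lower, against 8.55% and 6.75% of bright genes. With a loess trend (a smooth curve of the difference against level) subtracted 4 were in each RNA, against 10.8% and 8.67%, Man2b1 and Psap joining Gaa and Atp6v1a in polysome RNA.

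As a whole the lysosomal genes were centred near 0 and lower than the usual bright gene. Their medians of 0.05 in total and 0.02 in polysome RNA compare with 0.20 and 0.11 for bright genes and 0.02 in both for all named genes. With quantile normalisation the lysosomal medians turned to -0.03 and -0.04, against 0.08 and 0.06 for bright genes. With the loess trend subtracted they were -0.08 and -0.14, against 0.004 and -0.004. In total RNA 18 of the 34 were above 0 and 16 below, and in polysome RNA 17 and 17, while 67.1% and 63.5% of bright genes were above 0. The direction was repeated between the RNAs, which share no array: 16 genes were above 0 in both, 15 below 0 in both, and only Galns, Lamp2 and Gpnmb differed in sign. Across the 34 genes the differences in both RNAs had Pearson r = 0.93, compared with 0.91 over bright genes. The total and polysome samples of a label may come from the same culture, so this does not replicate a genotype effect. Both heterozygote-labelled arrays read above both wild-type-labelled arrays for 11 of the 34 genes, against 28.1% of all named genes and 45.4% of bright genes. The reverse order was seen for 8, against 19.5% and 20.8%.

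**Figure D3:**
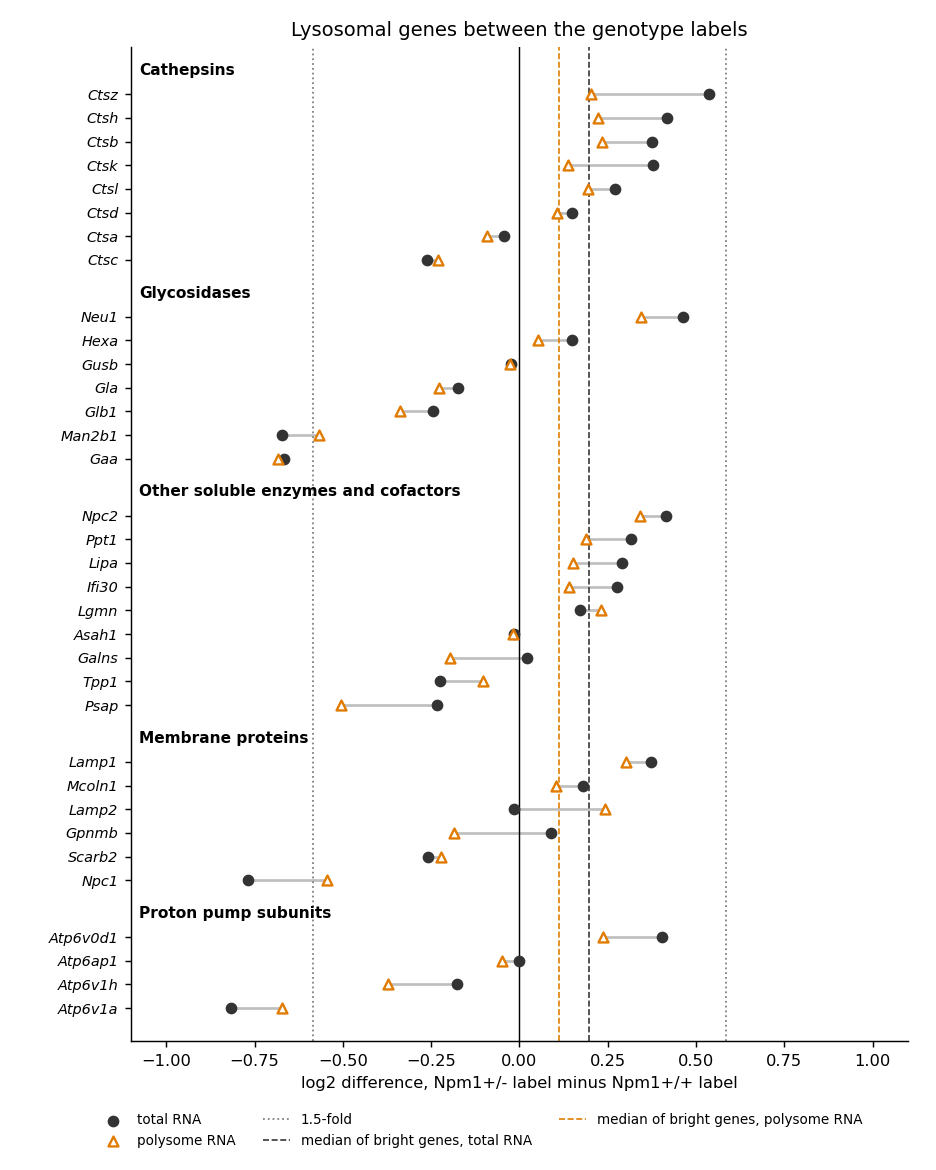
Log2 difference of the Npm1+/- label minus the Npm1+/+ label (horizontal axis) for each lysosomal gene, by gene group. Filled circles are total RNA and open triangles polysome RNA, joined by a grey line; dotted lines mark 1.5-fold and dashed lines the medians of bright genes, 0.20 in total and 0.11 in polysome RNA. Atp6v1a, Gaa, Man2b1 and Npc1 lie far to the left, and most cathepsins to the right of 0.

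The cathepsins, the proteases that degrade endocytosed and autophagic protein, had medians above that of the bright genes. Of 8 genes 6 (75%) were above 0 in each RNA, a share near that of bright genes given above, with medians of 0.32 in total and 0.17 in polysome RNA, and none reached 1.5-fold. The median kept its sign under all 8 alternatives, down to 0.14 in total and 0.02 in polysome RNA. Ctsz, cathepsin Z, a cysteine carboxypeptidase, read 11.61 in total RNA under the wild-type label and 12.15 under the heterozygote label, and 11.91 and 12.11 in polysome RNA. Both heterozygote-labelled arrays were thus above both others, by 0.54 (1.45-fold) in total and 0.20 in polysome RNA, and its dimmer probe sets gave 0.59 and 0.51 in total RNA. Ctsh, an aminopeptidase, followed with 9.53 and 9.95 in total RNA and 9.64 and 9.86 in polysome RNA. Ctsb, a cysteine endopeptidase and peptidyl dipeptidase, was at 0.38 and 0.23 at its brightest probe set and between 0.09 and 0.77 at the other 3. Ctsk, a collagen-degrading enzyme best known from osteoclasts, was at 0.38 and 0.14, and the general endopeptidase gene Ctsl at 0.27 and 0.20.

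The other cathepsins were closer to 0 or below it. Ctsd was at 0.15 in total and 0.11 in polysome RNA, and the carboxypeptidase gene Ctsa, whose product also protects neuraminidase and beta-galactosidase in a complex, at -0.04 and -0.09. Ctsc, which activates granule proteases by trimming their ends, was the lowest of the group. It read 10.41 and 10.15 in total RNA and 10.62 and 10.39 in polysome RNA, so both heterozygote-labelled arrays were below both others, by 0.26 and 0.23 on the log2 scale. Subtracting the loess trend turned Ctsd below 0 in both RNAs and Ctsk in polysome RNA. With an SD of 0.31 and 0.28 between probe sets of a gene, most single cathepsins differed by little more than that spread or by less.

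Macrophage markers were mostly above 0, as bright genes were. Of 14 on the array, 14 were above 0 in total RNA and 11 in polysome RNA, against 67.1% and 63.5% of bright genes. Their medians were 0.18 and 0.19, against 0.20 and 0.11 for bright genes, and 7 and 10 of the 14 lay above those. The highest was the complement gene C1qc at 0.71 in both. In polysome RNA Csf1r (-0.19), Adgre1 (-0.07) and Laptm5 (-0.04) were below 0, though the dimmer probe sets of Laptm5 gave 0.17 and 0.39. The summed signal of the list on the linear scale was 1373 and 1663 in total RNA and 3196 and 4178 in polysome RNA, wild-type label first. Tyrobp, Adgre1, Cd68, Cd14 and Ptprc were below 7.53 on every array. The fibroblast markers lay on the other side, with 9 of 12 below 0 in each RNA (median -0.16 in both) and a summed signal of 96771 and 83951 in total RNA and 107385 and 100912 in polysome RNA. The part of either cell type in the cathepsin values was not tested.

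The glycosidases, which remove sugars from glycans and glycolipids from their ends, were mostly below 0. Of 7 genes 5 were below 0 in each RNA, with medians of -0.17 and -0.23 that stayed negative under all alternatives. Gaa, the acid alpha-glucosidase that degrades glycogen and is lost in Pompe disease, read 10.56 and 9.89 in total RNA and 10.86 and 10.18 in polysome RNA. The heterozygote-labelled arrays lay below both others, by 0.67 (1.59-fold) and 0.68 on the log2 scale, and its dimmer probe set gave -0.57 and -0.72. Man2b1, the lysosomal alpha-mannosidase, read 9.95 and 9.28 in total RNA and 10.16 and 9.59 in polysome RNA. It differed by -0.67 in total and -0.57 in polysome RNA, the second just short of 1.5-fold, and a probe set below 7.53 gave -0.36 and -0.06. The beta-galactosidase gene Glb1 was at -0.24 and -0.34 and the alpha-galactosidase gene Gla at -0.17 and -0.23.

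Neu1, the sialidase, went the other way at its brightest probe set. It read 8.07 and 8.54 in total RNA and 8.22 and 8.56 in polysome RNA, with both heterozygote-labelled arrays above both others. That order rests on 1 probe set, because the other 2, both below 7.53 in mean, gave -0.11 and -0.01 in total RNA. Hexa, the alpha subunit of beta-hexosaminidase, was at 0.15 and 0.05. Gusb, beta-glucuronidase, was at -0.02 and -0.03, with a second probe set at -0.12 and -0.51.

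Among the other soluble proteins, 6 of 9 (66.7%) were above 0 in total RNA and 5 (55.6%) in polysome RNA, near or below the share of bright genes (medians 0.17 and 0.14, which turned to -0.06 and -0.03 with the loess trend subtracted). Npc2, the soluble carrier that hands cholesterol to NPC1, read 12.71 and 13.12 in total RNA and 12.91 and 13.25 in polysome RNA. Both heterozygote-labelled arrays were above both others, by 0.41 and 0.34, and its other probe set gave 0.37 and 0.26. The palmitoyl thioesterase gene Ppt1 (0.31 and 0.19), the acid lipase gene Lipa (0.29 and 0.15), the thiol reductase gene Ifi30 (0.28 and 0.14) and the asparagine-specific protease gene Lgmn (0.17 and 0.23) were also above 0 in both RNAs. The acid ceramidase gene Asah1 was at -0.02 in both and the sulfatase gene Galns at 0.02 and -0.20. At the low end stood Psap, precursor of the saposins that present sphingolipids to their hydrolases. It read 12.15 and 11.92 in total RNA and 12.53 and 12.02 in polysome RNA, which is -0.23 and -0.51, with -0.43 and -0.52 at its other probe set. The tripeptidyl peptidase gene Tpp1 was at -0.22 and -0.10.

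The membrane proteins showed no common direction between genotype labels, with 3 of 6 above 0 in each RNA. Npc1 was lowest, at -0.77 in total and -0.54 in polysome RNA. Its 4 values, given above, put both heterozygote-labelled arrays below both others and also below 7.53, and the array carries 1 probe set for it, so the size of these differences is uncertain. Npc1 and Npc2, whose products act in sequence on cholesterol, thus lay on opposite sides of 0 in both RNAs. Lamp1, a main glycoprotein of the membrane lining, read 12.91 and 13.28 in total RNA and 13.13 and 13.44 in polysome RNA, higher on both heterozygote-labelled arrays by 0.37 and 0.30. Its relative Lamp2, also the receptor of chaperone-mediated autophagy, depended on the probe set. The 4 probe sets ran from -0.45 to 0.14 in total RNA and from -0.31 to 0.24 in polysome RNA. Scarb2, the carrier of beta-glucocerebrosidase, was at -0.26 and -0.22, and Mcoln1 at 0.18 and 0.10.

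The proton pump subunits were led by Atp6v1a, the catalytic subunit of the cytosolic V1 sector, which had the largest difference of the 34 genes in total RNA. It read 10.63 and 9.81 in total RNA and 10.84 and 10.17 in polysome RNA, so that both heterozygote-labelled arrays lay below both others. The differences were -0.82 (1.76-fold lower) and -0.67, and -0.65 and -0.63 at its other probe set. Subtracting the loess trend took the first to -1.07, the only value of the 34 genes to pass 2-fold under an alternative scaling or probe set choice. Atp6v1h, another V1 subunit, was at -0.18 and -0.37. Atp6v0d1, of the membrane V0 sector, was on the other side, with 11.66 and 12.06 in total RNA and 11.69 and 11.92 in polysome RNA. Atp6ap1, an accessory subunit, read 11.54 under both labels in total RNA and 11.63 and 11.58 in polysome RNA. Subunits of the pump thus did not move together, and the group medians of -0.09 and -0.21 rest on 4 genes.

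Further genes of the lysosome were taken from a list of 50, of which 39 had a probe set. In total RNA 25 of them (64.1%) were above 0 and 14 below (median 0.08), and in polysome RNA 21 (53.8%) and 18 (median 0.04). Among bright genes 67.1% and 63.5% were above 0. None of the 39 reached 2-fold between genotype labels, against 1.04% and 0.767% of all named genes. At 1.5-fold 1 (2.56%) was higher and 2 (5.13%) lower in total RNA, near the 4.63% and 3.96% of all named genes. The higher was Atp6v0b, a membrane subunit of the proton pump, at 0.71 (10.44 against 11.15), but its other probe sets gave 0.28 and -0.11, and all 3 are of the _x_at or _s_at kinds, whose probes can match other transcripts. The lower ones were Tcirg1, a form of the V0 a subunit (8.42 against 7.53, and 8.72 against 8.09 in polysome RNA), and Ids, iduronate sulfatase (7.49 against 6.88, and 7.71 against 6.82), whose 5 probe sets averaged -0.45 and -0.41. Tcirg1 just passed 2-fold in total RNA with the loess trend subtracted. Of the 12 further pump genes 10 (83.3%) were above 0 in total RNA and 8 (66.7%) in polysome RNA, against 67.1% and 63.5% of bright genes. Tcirg1 was the lowest of the 12 in both.

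The machinery that delivers, regulates or restrains the enzymes was covered by 14 genes, 10 of them measured. Igf2r, the large cation-independent receptor that carries mannose 6-phosphate-tagged enzymes to the lysosome, was the only 1 of these past 2-fold, and is singled out after its values were seen. It read 10.77 and 9.60 in total RNA and 11.10 and 10.02 in polysome RNA, a difference of -1.17 and -1.08, and -1.32 and -1.12 at its other probe set. Under every scaling run it stayed past 2-fold, between -1.06 and -1.42. The small cation-dependent receptor gene M6pr was at 0.36 and 0.34. Cystatin C (Cst3) and cystatin B (Cstb), inhibitors of cysteine cathepsins outside and inside the cell, were at 0.52 and 0.39, and at -0.50 and -0.45. Tfeb was at -0.23 and -0.01, and its relative Mitf, below 7.53 on every array, at 0.61 and 0.42.

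The second comparison, of polysome with total RNA under each genotype label, concerns which RNAs are held on ribosomes, as far as the fraction labels hold. Here the lysosomal genes lay above the usual bright gene. In polysome RNA 30 of 34 read higher than in total RNA for the wild-type label and 29 for the heterozygote label, with medians of 0.24 and 0.15. Of the 16 genes with several probe sets, 7 and 6 had probe sets of both signs, compared with 2 in each RNA between genotype labels. With a gene's probe sets averaged, 32 and 29 of the 34 were above 0. The medians of bright genes were 0.14 and 0.07, with 76.4% and 65.1% above 0, and those of all named genes 0.09 and 0.05. Above the median bright gene were 26 and 25 of the 34, and between 23 and 26 under the alternative scalings and probe set choices, although the medians themselves shrank to as little as 0.12 and 0.04. Centring each array on its median moved the medians of all named genes from 0.09 to -0.03 and from 0.05 to -0.05, and left 26 and 24 of the 34 above 0. None of the 34 differed by 2-fold, against 0.855% and 0.767% of all named genes. At 1.5-fold, Scarb2 and Gpnmb were higher and Gla was lower under both labels (Gpnmb fell to 0.56 to 0.57 under the heterozygote label with centring, quantile or loess scaling), against 3.87% and 3.05% of all named genes higher and 2.98% and 2.07% lower. Among bright genes 3.13% and 1.86% were 1.5-fold higher, and 2 of 34 is 5.88%. Both polysome arrays read above both total arrays for 12 genes, against 25.9% of all named genes and 23.0% of bright genes, and below for 2, Gla and Galns, against 19.6% and 6.87%.

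**Figure D4:**
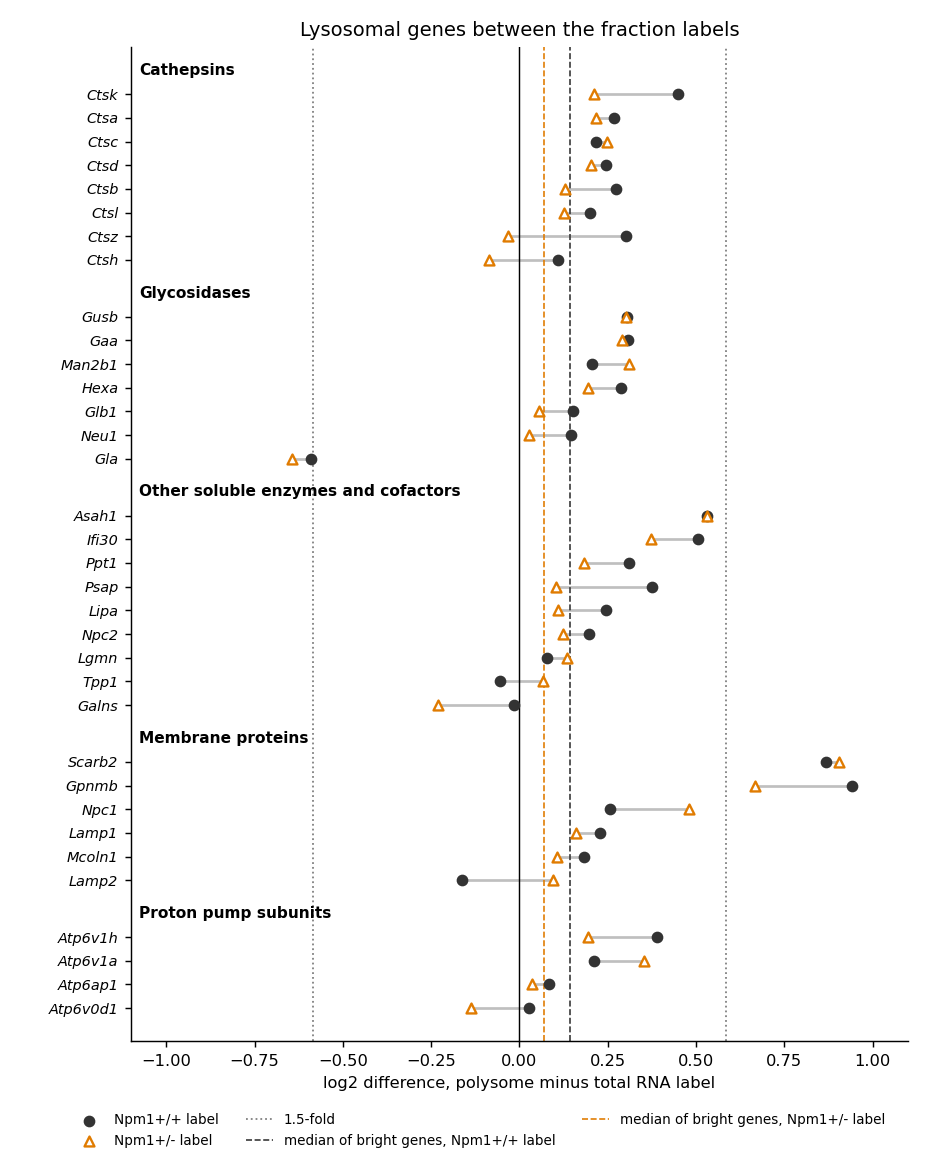
Log2 difference of polysome minus total RNA (horizontal axis) for each lysosomal gene, by gene group. Filled circles are the Npm1+/+ label and open triangles the Npm1+/- label, joined by a grey line; dotted lines mark 1.5-fold and dashed lines the medians of bright genes, 0.14 and 0.07. Scarb2 and Gpnmb lie to the right of the 1.5-fold line under both labels and Gla to the left of it.

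The membrane proteins held the highest values of this comparison. Scarb2 read 10.34 in total and 11.21 in polysome RNA for the wild-type label, and 10.08 and 10.99 under the heterozygote label. Both polysome arrays were above both total arrays, by 0.87 and 0.90, and its dimmer probe set gave 0.57 and 0.29. Gpnmb was higher in polysome RNA by 0.94 and 0.67 from the values given above, both total arrays being below 7.53, so the size of these differences is uncertain. Npc1 followed with 0.26 and 0.48. Lamp1 (0.23 and 0.16) and Mcoln1 (0.18 and 0.11) were smaller, and Lamp2 (-0.16 and 0.09) again depended on the probe set, at 0.35 and 0.30 from the next brightest. The group medians were 0.24 and 0.32.

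All 8 cathepsins read higher in the polysome array of the wild-type label (7 with centring, quantile or loess scaling, which turned Ctsh), and 6 did for the heterozygote label, with medians of 0.26 and 0.17. Ctsk read 9.26 in total and 9.71 in polysome RNA for the wild-type label, and 9.63 and 9.84 under the heterozygote label, a difference of 0.45 and 0.21. Ctsh was lowest, at 0.11 and -0.09, and Ctsz was at 0.30 and -0.03. The others lay between 0.13 and 0.27. These values are of the size of the spread between probe sets, 0.26 and 0.23, and the 6 of 8 above 0 for the heterozygote label (75%) lie near the 65.1% of bright genes.

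Of the 7 glycosidases 6 (85.7%) were above 0 under each label, with medians of 0.21 and 0.19. Among bright genes 76.4% and 65.1% were above 0, and 6 and 4 of the 7 lay above the median bright gene. Gusb read 9.45 in total and 9.75 in polysome RNA for the wild-type label and 9.42 and 9.72 under the heterozygote label, and its second probe set gave 0.36 and -0.02. Gaa was at 0.31 and 0.29 and Hexa at 0.29 and 0.19. Gla, the enzyme lost in Fabry disease, stood apart from the group. It read 8.69 in total and 8.10 in polysome RNA for the wild-type label and 8.52 and 7.88 under the heterozygote label, lower by 0.59 and 0.64 on the log2 scale. Its other probe set, at a mean of 7.04, gave 0.52 and 0.45, so the direction for Gla depends on the probe set, and the mean of both came to -0.03 and -0.10.

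Among the other soluble proteins, Asah1 was highest. It read 12.03 in total and 12.56 in polysome RNA for the wild-type label and 12.01 and 12.54 under the heterozygote label, a difference of 0.53 in both. Ifi30, which reduces disulfides of proteins to be degraded and is induced by interferon gamma, read 10.18 and 10.69, and 10.46 and 10.83. For both genes the polysome arrays were above the total arrays without overlap. Psap was at 0.38 and 0.10. Galns, which removes sulfate from keratan and chondroitin sulfate, was lowest, with 8.02 in total and 8.01 in polysome RNA for the wild-type label and 8.04 and 7.81 under the heterozygote label. The proton pump subunits were closest to 0, with medians of 0.15 and 0.11. Atp6v1h read 9.50 and 9.89, and 9.33 and 9.52, and Atp6v1a was at 0.21 and 0.35, whereas Atp6v0d1, at 0.03 and -0.14, and Atp6ap1, at 0.08 and 0.04, differed by less.

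Macrophage markers also mostly read higher in polysome RNA. Of 14, 6 were 2-fold or more higher there for each label, against 59 and 51 of all 12393 named genes and none of the 34 lysosomal genes. The medians of the 14 were 0.66 and 0.57, and 13 and 11 of them were above 0. Ptprc was lowest, at -0.21 and -0.32, and Csf1r (0.05 and -0.22) and Cd14 (0.34 and -0.03) were below 0 under the heterozygote label. The dimmer probe sets of Csf1r gave 0.37 and 0.26, and 0.48 and 0.33, so its direction there depends on the probe set. The summed linear signal of the 14 was 1373 and 1663 in the total arrays and 3196 and 4178 in the polysome arrays. That of the 12 fibroblast markers, in which the brightest genes weigh most, was between 83951 and 107385 on all arrays. By gene, 10 of these 12 were above 0 under each label, with medians of 0.21 and 0.18. Their highest, Dcn, passed 2-fold under both labels, at 1.37 and 1.16. The cysteine protease gene Ctss, counted here among the macrophage markers and absent from the 34, read 5.43 and 7.86 under the wild-type label and 5.72 and 8.12 under the heterozygote label. Gpnmb, Ifi30, Asah1, Ctsk and Scarb2, the 5 genes of the list highest in the polysome array of the wild-type label relative to total RNA, lay between 0.21 and 0.94. The part of macrophage RNA in these values was not tested.

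Of the 39 further lysosomal genes, 30 (76.9%) were above 0 under the wild-type label and 25 (64.1%) under the heterozygote label. These shares are near the 76.4% and 65.1% of bright genes. Their medians were 0.20 and 0.09, against 0.14 and 0.07 for bright genes, and 23 and 21 of the 39 lay above those. Apart from Ctss, only Manba, the beta-mannosidase gene, was 1.5-fold higher under both labels, with 7.12 in total and 7.88 in polysome RNA for the wild-type label and 6.71 and 7.43 under the heterozygote label. Manba has 1 probe set, with a mean of 7.28, below 7.53, so the size of its differences is uncertain. Igf2r was at 0.33 and 0.43.

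**Figure D5:**
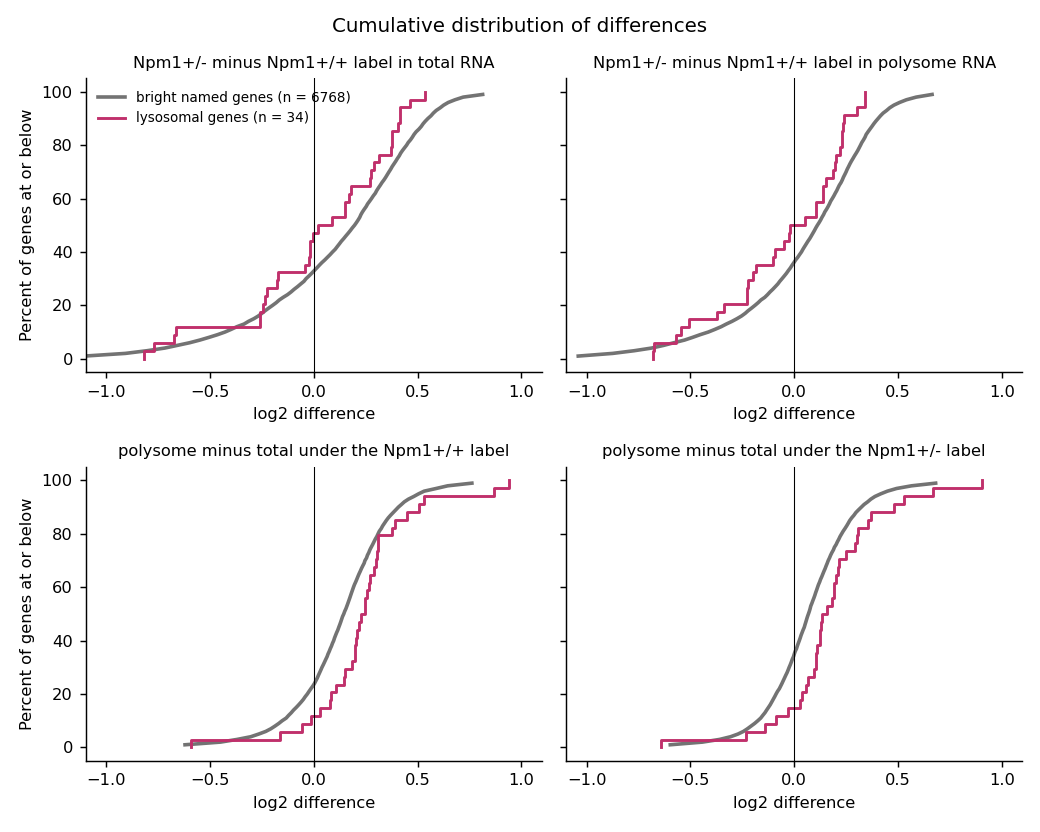
Cumulative percent of genes (vertical axis) at or below a log2 difference (horizontal axis) in the 4 comparisons between pairs of arrays. The pink steps are the 34 lysosomal genes and the grey line the 6768 bright genes, drawn from the 1st to the 99th percentile. The pink line lies mostly at or to the left of the grey line between genotype labels (medians 0.05 against 0.20, and 0.02 against 0.11) and to its right between fraction labels (0.24 against 0.14, and 0.15 against 0.07).

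The last comparison takes the difference between the fraction differences, heterozygote minus wild-type label, and so asks whether the hold on ribosomes differs by genotype label. It uses all 4 arrays. No lysosomal gene reached 1.5-fold either way, against 0.266% of all named genes higher and 0.137% lower, and 0% of them reached 2-fold. The median of -0.07 was the same as that of bright genes. Above 0 were 8 of 34 genes (23.5%), against 32.0% of bright genes, and 16 with quantile normalisation and 15 with the loess trend subtracted. Ctsz had the largest value, -0.33, followed by Gpnmb and Psap at -0.27 each, against an SD of 0.22 between probe sets. On the other side Lamp2 was at 0.26, but at -0.05 once the _x_at and _s_at probe sets were left out, and Npc1 at 0.23.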

How the data were processed

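The deposited table held log2 values for 22690 probe sets on 4 arrays, made by the authors with R 3.4.3, affy 1.56.0 and RMA, per the submitters' processing notes; their settings are not given in the sources used here. Arrays were grouped by their labels. The 64 manufacturer control probe sets were named for no gene, and 20380 probe sets carried 1 symbol in the platform annotation. Updating through RefSeq (GRCm38.p6) changed 0 symbols. The brightest probe set by mean stood for a gene, and log2 differences were computed in Python 3.11.15 with pandas 2.3.3 for 5 comparisons. Signal over background is known only through a probe set's level, and 4 arrays, 1 per group, limit every value: no p-value was computed. Genes were counted at 2-fold, and also at 1.5-fold and 3-fold. The calculation was checked on simulated arrays with known changes.

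The members, groups and gene lists were chosen with earlier results of these data known. Members with all 4 values are those past 1.5-fold in a comparison of 2 arrays and the highest and lowest of each group. Further lysosomal genes are named where past 1.5-fold and at or above 7.53 on some array. Alternatives were averaging a gene's probe sets, leaving out _x_at and _s_at probe sets, centring, quantile normalisation, a loess trend (span 0.3) and 3 filters on level. The numbers of probe sets per gene differ, and spread between them stands in for technical error only.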

Additional observations from a re-analysis of the deposited data

How the results depend on the processing

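No paired analysis was possible because each group holds 1 array. The medians over the lysosomal genes moved by less than the SD between probe sets under all 8 alternatives. That SD is of single genes and does not measure the spread of a median, so this is a loose bound. Between fraction labels the medians kept their sign, from 0.12 to 0.26 under the wild-type label and from 0.04 to 0.19 under the heterozygote label. Between genotype labels they ran from -0.08 to 0.15 in total and from -0.14 to 0.11 in polysome RNA, so their sign is not settled. The association difference stayed between -0.08 and -0.01. The counts at 2-fold were 0 in every comparison. Subtracting the loess trend gave 1 gene lower in total RNA (Atp6v1a). A threshold of 1.5-fold gave 4 lower in total and 2 lower in polysome RNA between genotype labels, and 2 higher and 1 lower between fraction labels under each label; 3-fold gave none. Of 1045 values for single genes and groups under the alternatives, 8 moved by more than the SD between probe sets. They belonged to Gla, Neu1 and Lamp2, whose probe sets disagree, to Scarb2 and to the membrane protein group. Scarb2 fell from 0.90 to 0.60 in polysome minus total RNA under the heterozygote label. The membrane protein median between genotype labels in polysome RNA went from -0.04 to 0.24 under the strictest filter on level. The filters on mean and on highest value at 7.53 kept all 34 genes and changed nothing.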
